A study of Homo sapiens with 8 samples.

Results

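Genes that answer to the second messenger cyclic AMP (cAMP) were followed across 4 conditions of factory RNA-Seq in IMR90, a line of human lung fibroblasts. The set holds 8 of the 28265 genes in the count tables, found by their gene symbol. They are LINC00473, the nuclear receptors NR4A1, NR4A2 and NR4A3, the transcription factor CREM, the kinase SIK1, the G protein regulator RGS2 and the phosphatase DUSP1. Factory RNA-Seq aims at nascent RNA from transcription factories, although the labels describe poly(A)+ RNA and a TruSeq library for these samples. Each condition had 2 libraries of low passage IMR90. The control libraries are titled "young" and are described as wild type, with no vehicle named. The treated cells received ICM (inflachromene), a small molecule that binds HMGB1 and HMGB2, for 3 or for 6 days. The last pair of libraries is named MetaICM, with neither the treatment nor its length explained in the sources used here. Nothing in the labels says that the 2 libraries of a condition came from separate cultures, so p-values measure the spread between these libraries, which may be technical. LINC00473 was chosen by its measured log2FC in MetaICM, where it is among the largest decreases, and the set was proposed with these data known. The values of the members in the MetaICM comparisons, and those of LINC00473 against control, are thus given as a description with no test. Genes outside the set were tested in all comparisons.

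When a hormone or prostaglandin activates a receptor coupled to Gs, adenylyl cyclase makes cAMP, which releases the catalytic subunits of protein kinase A (PKA). PKA phosphorylates CREB and, by restraining the salt-inducible kinases, lets CRTC coactivators enter the nucleus, so that genes with a cAMP response element (CRE) are switched on within minutes to hours. Several of these genes then damp the signal, and in fibroblasts prostaglandin E2 is a well-known source of it.

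The libraries held between 12095123 and 23166405 counted read pairs. Fibroblast markers (10 of 10 with counts, among them COL1A1 and VIM) summed to between 10686 and 22525 CPM, the count scaled to library size. S100A4, also on this list, reached only 0.266 to 0.873 CPM. Epithelial markers summed to at most 1.29 CPM and leukocyte markers to at most 2.36 CPM, with CD3E and LAPTM5 at 0. The endothelial list summed to between 130 and 234 CPM, of which TEK alone gave 124 to 231 CPM, whereas the defining PECAM1 and CDH5 reached at most 0.446 and 0.0828 CPM. The fibroblast sum was lower under ICM, with 12512 to 13896 CPM after 3 days and 10686 to 10978 CPM after 6 days, than in control (22219 to 22525 CPM) or MetaICM (19411 to 20324 CPM). Its part in the results below was not tested. The cells are of a single line, and bulk counts do not show whether all cells or only some of them held less of these RNAs.

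The CRE is the palindrome TGACGTCA, and its 5-letter core TGACG is enough to bind CREB at many promoters. RefSeq promoter windows (GRCh38.p14), which run from 250 bases before to 50 bases after an annotated start, were found for 7 of the 8 members, all but NR4A2. The core was searched on both strands, and a palindrome also counts as 2 overlapping cores. The core stood in 24.6% of 35116 windows, or in at least 1 window of 28.4% of 27305 genes, and the palindrome in 1.85% of windows. LINC00473, NR4A3, CREM, SIK1, RGS2 and DUSP1 held the core and NR4A1 did not, in either of its 2 windows. DUSP1 held the palindrome, as did CREM in 2 of its 7 windows, which overlap and share the same letters. CREM held the core in 3 windows, and its stretch below comes from a window with the palindrome. Where the start of that window lies within CREM was not examined, so it need not be the first promoter of the gene. The stretches below are shown because they let the spacing of these letters be compared with the levels that follow. Capitals mark the cores, each sequence reads 5′ to 3′ on the gene's strand, and a match describes the letters only, not binding.
LINC00473, chr6:165988107-165988226, minus strand, −187 to −68 from the start: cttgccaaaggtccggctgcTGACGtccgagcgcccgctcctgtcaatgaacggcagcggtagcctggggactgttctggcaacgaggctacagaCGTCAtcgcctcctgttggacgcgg
NR4A3, chr9:99821756-99821884, plus strand, −129 to −1 from the start: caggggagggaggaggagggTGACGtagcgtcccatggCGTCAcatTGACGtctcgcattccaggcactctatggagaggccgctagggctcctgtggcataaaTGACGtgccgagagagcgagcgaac
CREM, chr10:35195832-35195879, plus strand, −70 to −23 from the start: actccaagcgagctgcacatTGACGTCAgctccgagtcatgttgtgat
RGS2, chr1:192808838-192808882, plus strand, −201 to −157 from the start: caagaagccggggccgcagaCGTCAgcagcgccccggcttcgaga
DUSP1, chr5:172771282-172771387, minus strand, −192 to −87 from the start: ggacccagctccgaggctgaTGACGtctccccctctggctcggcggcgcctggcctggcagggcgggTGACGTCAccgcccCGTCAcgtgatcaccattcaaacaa

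**Figure D1:**
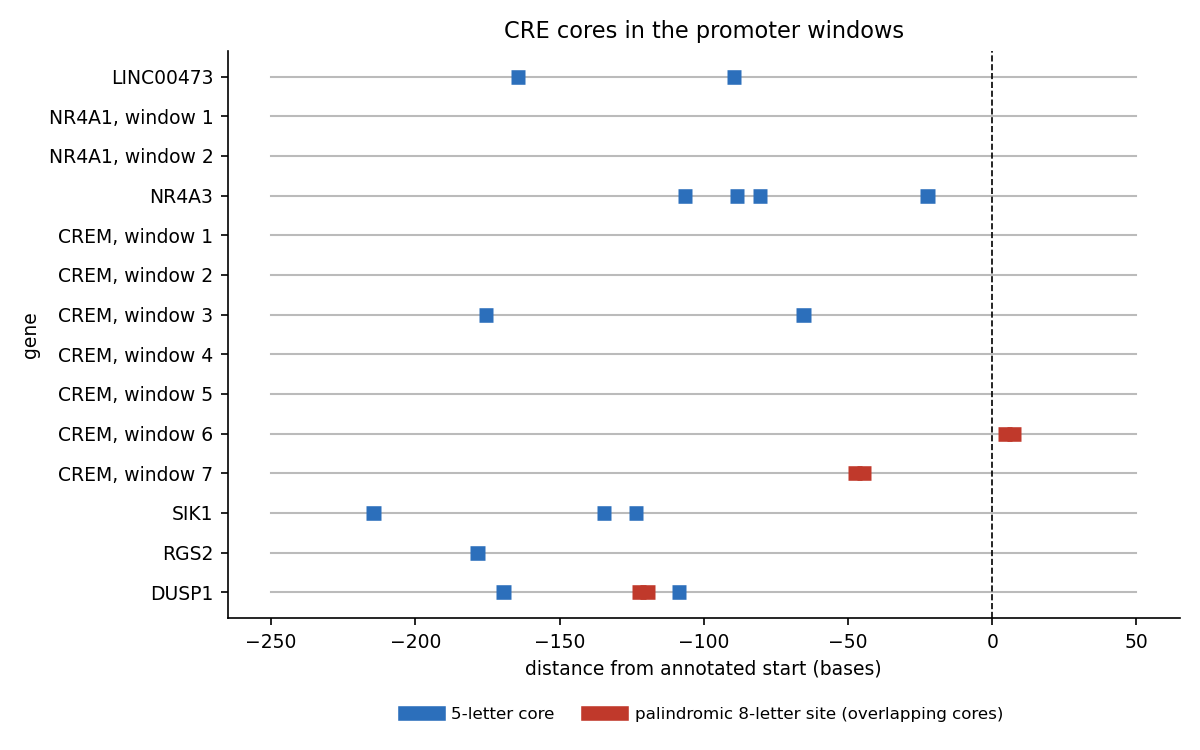
Position of CRE cores in the RefSeq promoter windows of 7 members (x axis, distance from the annotated start in bases; 1 line per window). Blue bars are 5-letter cores and red bars are the 8-letter palindrome; NR4A3 holds 4 cores in its 1 window, and neither window of NR4A1 holds any.

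LINC00473, a long noncoding RNA known to be induced by CREB and its CRTC coactivators, was highest in control and lower in every other condition. It lies on chromosome 6 of hg19 from 166337536 to 166401527 on the minus strand, with 3 merged exons of 2431 bases. Both control libraries were near each other, at 7.79 and 6.37 CPM (131 and 77 read pairs). After 3 days of ICM the libraries gave 0.736 and 1.21 CPM (16 and 18 pairs), and after 6 days 0.537 and 0.372 CPM (10 and 7 pairs). The MetaICM libraries gave 0.0990 and 0.347 CPM (2 and 8 pairs). No treated library reached the level of a control library, and the libraries of the 4 conditions did not overlap in the order control, 3 days, 6 days, MetaICM. The mean was 7.27 times lower than in control after 3 days, 15.6 times after 6 days and 31.7 times in MetaICM, with log2FC of −2.91 (standard error 0.32), −3.95 (0.32) and −4.91 (0.39). The low counts leave the last value loose, and without MetaICM replicate 2 it was −6.05.

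Among the treated libraries, the depth limited what could be told of LINC00473. Between 6 and 3 days, a comparison that the choice of the gene did not use, the log2FC was −1.05 (standard error 0.48) with an adjusted p of 0.141 from edgeR's quasi-likelihood test, which misses the threshold. Summed over both libraries, 17 against 34 pairs gave a level 2.05 times lower at 6 days, with an exact 95% interval from 1.11 to 3.91 that covers counting error only and not the spread between libraries. MetaICM lay below 3 days with a log2FC of −2.0 (standard error 0.57), which became −3.18 without MetaICM replicate 2. The summed counts there, 10 against 34 pairs, gave a level 4.02 times lower. The 2 MetaICM libraries held 2 and 8 of the 10 pairs. Against 6 days the gene had too few counts for the fit. There, 10 pairs in MetaICM against 17 gave a level 1.96 times lower, with a counting interval from 0.849 to 4.80 that includes equal levels. This interval shows a limit of the counts and is not a test, since MetaICM was used to choose the gene. Of its exon bases, 489 overlap LINC00602 on the opposite strand, and pairs falling there were not counted.

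The genes around LINC00473 were measured in the same libraries. Within 500000 bases of it the tables list 11 genes, of which 5 had enough counts to be tested. PDE10A, a phosphodiesterase, ranged from 23.6 to 36.6 CPM over all 8 libraries, MPC1, the mitochondrial pyruvate carrier subunit, from 3.64 to 6.56 CPM, and SFT2D1 from 9.57 to 13.8 CPM. None of these 3 was called by edgeR or DESeq2 in any of the 6 comparisons, where a call needs an adjusted p under 0.05 and an absolute log2FC over 0.6. An unadjusted p under 0.05 was reached in 4 comparisons by PDE10A, in 4 by MPC1 and in 0 by SFT2D1. By edgeR, PDE10A in MetaICM also had an adjusted p under 0.05 with a change short of 0.6. This held against control (log2FC −0.44, adjusted p = 0.0378) and against 6 days (−0.34, adjusted p = 0.00398). RPS6KA2, a ribosomal S6 kinase, fell at 6 days, from 57.9 to 26.8 CPM on average (log2FC −1.11, standard error 0.12, adjusted p = 5.93e-05), but stood at 50.4 CPM in MetaICM (log2FC against control −0.20, adjusted p = 0.208). RPS6KA2-IT1, a transcript that lies within RPS6KA2, fell from 4.24 to 1.20 CPM at 6 days (log2FC −1.80, standard error 0.35, adjusted p = 0.00216). Its value against control in MetaICM was −0.86 (adjusted p = 0.0481), a call lost without control replicate 2, MetaICM replicate 1 or MetaICM replicate 2. The other 6, LINC00602, LOC100289495, LOC101929297, LOC729681, PRR18 and TBXT, had at most 14 counts in any library.

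The genes whose profile over the 8 libraries was most like that of LINC00473 were POSTN, PTGIS, EGR3, IL1A and MERTK, out of 16590 genes compared. Likeness was the root mean square difference of log2 CPM, each gene centred on its own mean, and it was smallest for POSTN (0.622), the matricellular protein periostin. POSTN averaged 232 CPM in control, 93.2 after 3 days, 38.1 after 6 days and 19.7 in MetaICM. PTGIS, the prostacyclin synthase, averaged 13.3, 1.79, 0.374 and 0.740 CPM in the same order. EGR3, an immediate early transcription factor, averaged 8.64 CPM in control and between 0.535 and 0.866 CPM in the other conditions. All 5 were highest in both control libraries, which is a description since they were picked for their likeness. Of the other members, NR4A1 came nearest, at rank 271, while the rest ranked between 8382 and 14653. With a smaller prior count, 4 of the 5 genes were the same.

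**Figure D2:**
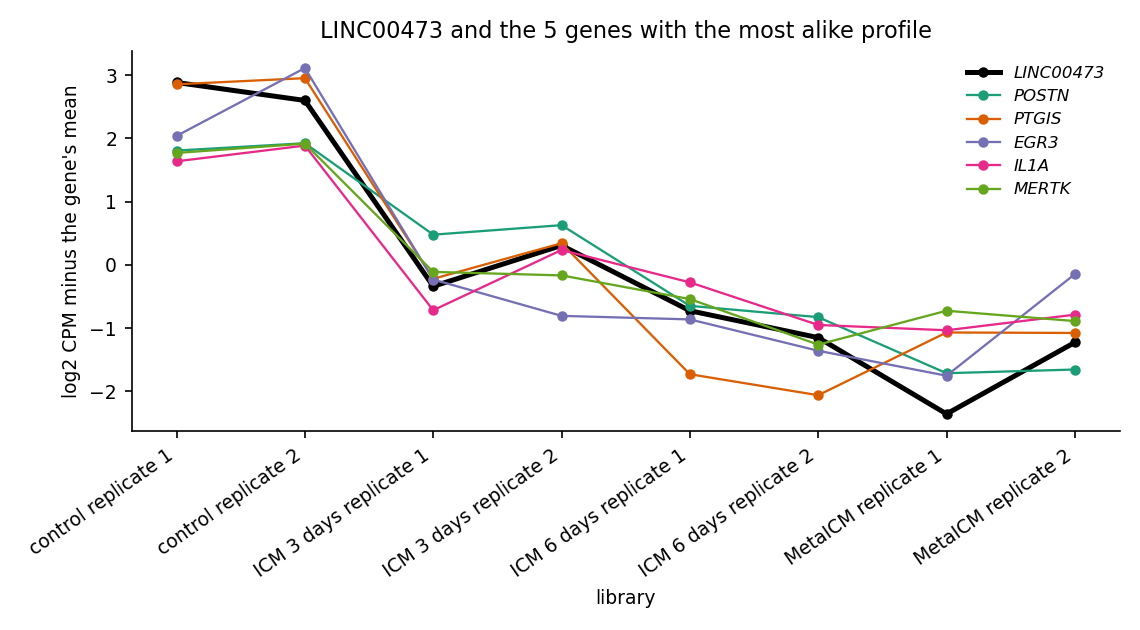
Level of LINC00473 (thick black line) and the 5 genes most like it in each of the 8 libraries (y axis, log2 CPM minus the gene's own mean over the libraries; lines only join the values of a gene). LINC00473 goes from 7.79 and 6.37 CPM in the control libraries to 0.0990 and 0.347 CPM in MetaICM, and all 6 genes are highest in both control libraries.

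The NR4A receptors are orphan nuclear receptors induced as immediate early genes, and the 3 of them took different courses under ICM. NR4A1, also known as Nur77, lies on chromosome 12 from 52416616 to 52453291. Its control libraries gave 43.5 and 33.0 CPM, those of 3 days 41.7 and 27.1 CPM, those of 6 days 28.3 and 26.8 CPM, and those of MetaICM 7.87 and 14.3 CPM. The 3-day libraries spanned most of the control range, whereas the 6-day libraries lay below it and the MetaICM libraries below all others. The log2FC was −0.15 at 3 days (standard error 0.20, adjusted p = 0.616) and −0.48 at 6 days (standard error 0.15, adjusted p = 0.0259), the latter short of the 0.6 required for a call. Without control replicate 2 the 6-day value was −0.66 and passed both cutoffs. In MetaICM it was −1.79 (standard error 0.24) against control and −1.30 (standard error 0.16) against 6 days.

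NR4A2, or Nurr1, known for its role in dopamine neurons, rose at 6 days of ICM. It lies on chromosome 2 from 157180949 to 157189233. The control libraries differed most, at 14.7 and 7.29 CPM, followed by 17.1 and 16.7 CPM after 3 days and 44.8 and 29.1 CPM after 6 days. MetaICM gave 2.43 and 2.34 CPM. Both 6-day libraries stood above all others and both MetaICM libraries below all others. The increase of 3.36 times at 6 days passed the test (log2FC 1.72, standard error 0.28, adjusted p = 0.000819), as did that from 3 to 6 days (log2FC 1.12, standard error 0.16, adjusted p = 4.55e-05). At 3 days the log2FC of 0.60 had an adjusted p of 0.101. It depended on the control library kept, being 1.21 without control replicate 1 and 0.18 without control replicate 2. The mean in MetaICM was 4.61 times lower than in control (log2FC −2.23, standard error 0.31) and 15.5 times lower than at 6 days (log2FC −3.95, standard error 0.19), the largest distance of any member with a fit in that comparison.

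NR4A3, or NOR1, rose at 3 and at 6 days. It lies on chromosome 9 from 102584137 to 102629173. Control gave 3.92 and 2.65 CPM, 3 days 6.99 and 5.86 CPM, 6 days 7.46 and 5.74 CPM, and MetaICM 0.941 and 1.39 CPM. All 4 libraries with ICM for 3 or 6 days lay above control, and the 3- and 6-day libraries overlapped. The log2FC was 0.95 at 3 days (standard error 0.27, adjusted p = 0.0201) and 0.98 at 6 days (standard error 0.26, adjusted p = 0.0118). The 3-day call was lost without control replicate 2 (0.70) or 3-day replicate 1 (0.80), and the 6-day call without 6-day replicate 1 (0.79). Between the time points it was 0.02 (standard error 0.20, adjusted p = 0.955), an interval of 2 standard errors from −0.38 to 0.42. In MetaICM it was −1.50 against control (standard error 0.33) and −2.48 against 6 days (standard error 0.25).

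CREM encodes activators and, from an internal promoter, the ICER repressors, which bind the CRE and end the response. It lies on chromosome 10 from 35415769 to 35501886, and the counts sum all its exons, so that ICER cannot be told from the longer forms. The libraries gave 12.5 and 11.7 CPM in control, 20.6 and 20.8 CPM after 3 days, 27.3 and 23.0 CPM after 6 days, and 11.4 and 12.2 CPM in MetaICM. All 4 libraries of 3 and 6 days lay above control, while those of MetaICM overlapped with control. CREM rose 1.71 times at 3 days (log2FC 0.77, standard error 0.16, adjusted p = 0.00428) and 2.08 times at 6 days (log2FC 1.05, standard error 0.15, adjusted p = 0.000414). From 3 to 6 days the log2FC was 0.28 (adjusted p = 0.127). Unlike LINC00473 and the NR4A genes, CREM in MetaICM overlapped its control level (log2FC −0.04, standard error 0.15), and no test compared it with the other members. It was lower than at 6 days (log2FC −1.09, standard error 0.11).

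SIK1, the salt-inducible kinase that restrains CRTC coactivators and is itself a CREB target, was at 0 in all 8 libraries. Its 4747 exon bases on chromosome 21, from 44834363 to 44847011, coincide with those of SIK1B in the annotation used for counting, and reads that fall on several genes were not counted. All 353 genes whose exons coincide with those of another were at 0, and the level of SIK1 was thus not measured.

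RGS2 and DUSP1 are induced by cAMP and damp signalling, RGS2 by speeding the shut-off of G proteins, mainly Gq, and DUSP1 by dephosphorylating MAP kinases. RGS2, on chromosome 1 from 192778169 to 192781405, gave 20.8 and 19.7 CPM in control, 36.9 and 28.8 CPM after 3 days, 47.5 and 48.5 CPM after 6 days, and 15.3 and 16.5 CPM in MetaICM. Its 4 conditions did not overlap at all, with 6 days highest and MetaICM lowest. RGS2 rose at 3 days (log2FC 0.70, standard error 0.17, adjusted p = 0.00792) and at 6 days (log2FC 1.24, standard error 0.13, adjusted p = 3.29e-05). The 3-day call was lost without 3-day replicate 1 (0.49). From 3 to 6 days the log2FC was 0.53 (standard error 0.12, adjusted p = 0.00332), short of 0.6, and without 3-day replicate 1 it was 0.74. MetaICM lay a little below control (log2FC −0.36, standard error 0.14) and 3.02 times below 6 days (log2FC −1.59, standard error 0.09).

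DUSP1, on chromosome 5 from 172195100 to 172198198, encodes a nuclear phosphatase that is itself an immediate early gene product. Control gave 129 and 108 CPM, 3 days 234 and 189 CPM, 6 days 175 and 201 CPM, and MetaICM 84.8 and 103 CPM. Every library of 3 or 6 days lay above control, the time points overlapped, and MetaICM lay below control. DUSP1 rose 1.79 times at 3 days (log2FC 0.83, standard error 0.15, adjusted p = 0.00112) and 1.59 times at 6 days (log2FC 0.66, standard error 0.13, adjusted p = 0.00199). The latter was so near the cutoff of 0.6 that it dropped under it without control replicate 2 (0.55) or 6-day replicate 2 (0.57). Between time points it was −0.17 (standard error 0.10, adjusted p = 0.265). In MetaICM it was −0.34 (standard error 0.13) against control and −1.0 (standard error 0.09) against 6 days.

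**Figure D3:**
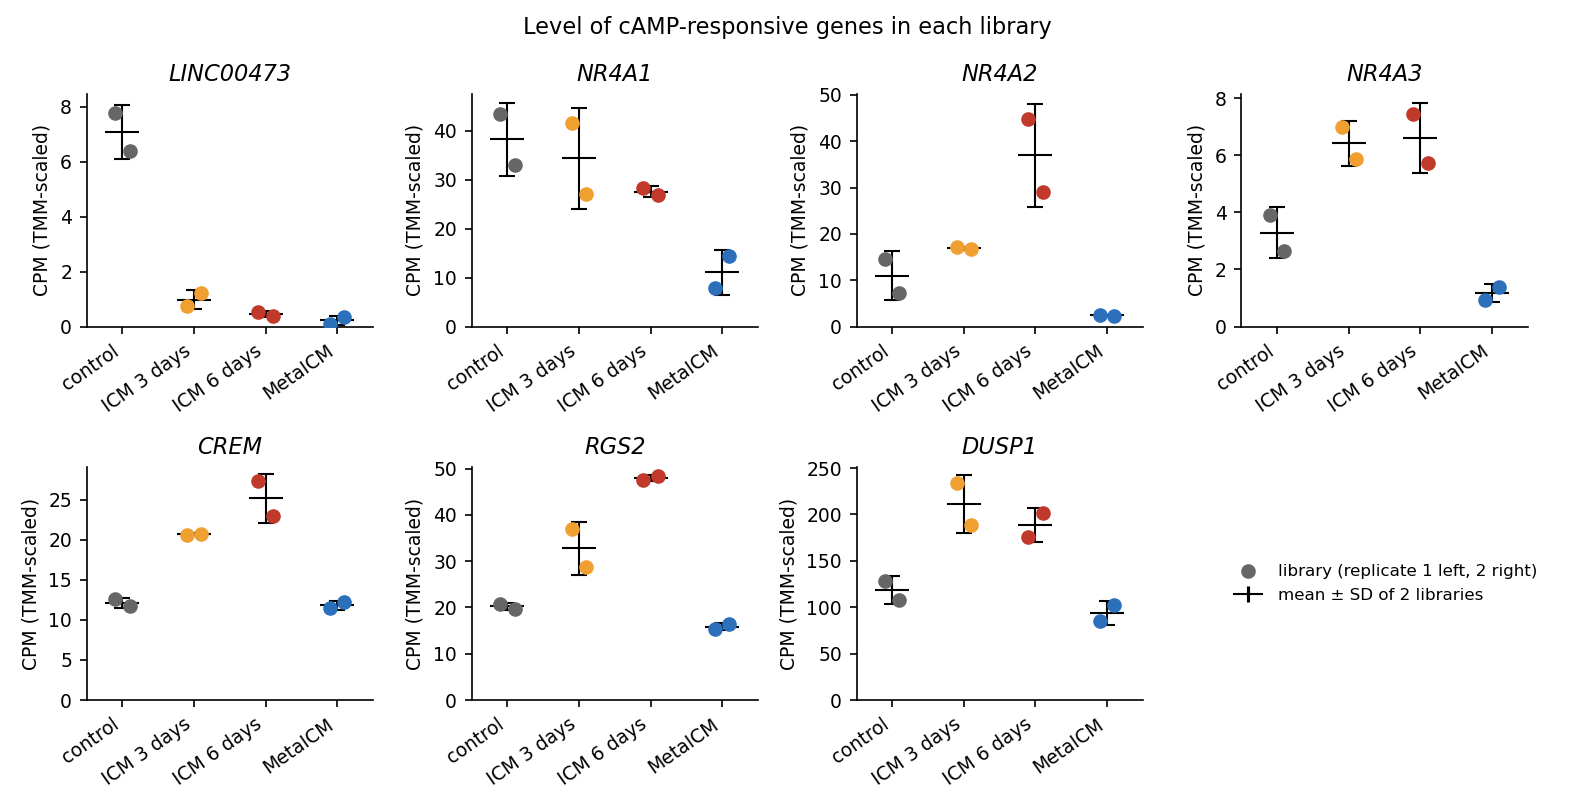
CPM scaled with TMM factors (y axis, from 0) of 7 members in the 2 libraries of each condition (points), with the mean and SD (black). NR4A2 and RGS2 are highest after 6 days, up to 44.8 and 48.5 CPM, whereas LINC00473 is highest in control, at 7.79 and 6.37 CPM.

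Of the 6 members tested against control (LINC00473 and SIK1 left out), NR4A3, CREM, RGS2 and DUSP1 were called higher at 3 days, that is 4 of 6, beside 8.85% of all genes tested. The set was proposed with these data known, so the counts here are a description and not independent evidence about cAMP-responsive genes. Without 3-day replicate 1, 2 of the 4 calls remained. At 6 days NR4A2 joined them to give 5 of 6, beside 13.3% of all genes. From 3 to 6 days NR4A2 was the 1 member called higher, beside 3.53% of all genes, and a second joined without 3-day replicate 1. None was called lower by edgeR, beside 13.2%, 17.2% and 4.54% of all genes. DESeq2 called none lower either, and at an unadjusted p under 0.05 the counts were 0, 1 and 1, with NR4A1 as the member. Without control replicate 2 at 6 days, or without 3-day replicate 2 from 3 to 6 days, NR4A1 gave 1 call.

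The median log2FC over the 7 measured members, LINC00473 included, was 0.70 at 3 days, 0.98 at 6 days, −1.50 in MetaICM against control and −1.63 in MetaICM against 3 days. Over all genes tested it lay between −0.01 and 0.01 in every comparison. Counted by libraries that do not overlap, 5 of 7 lay above control at 3 days (33.7% of all genes) and 1 below (31.8%), and at 6 days 5 lay above (36.6%) and 2 below (36.1%). From 3 to 6 days 3 lay above (29.9%) and 1 below (29.5%). All 7 had libraries in MetaICM below those of 6 days, as did 37.8% of all genes, and below those of 3 days, as did 35.7%. Against control, 6 of 7 lay below and CREM overlapped, beside 33.6% of all genes. Higher libraries in MetaICM were found for 0 members in these 3 comparisons, beside 38.4%, 36.9% and 34.7% of all genes. Since MetaICM was used to choose the set, nothing is read from these shares. The 3 contrasts against control share the control libraries, so their values stand side by side only.

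**Figure D4:**
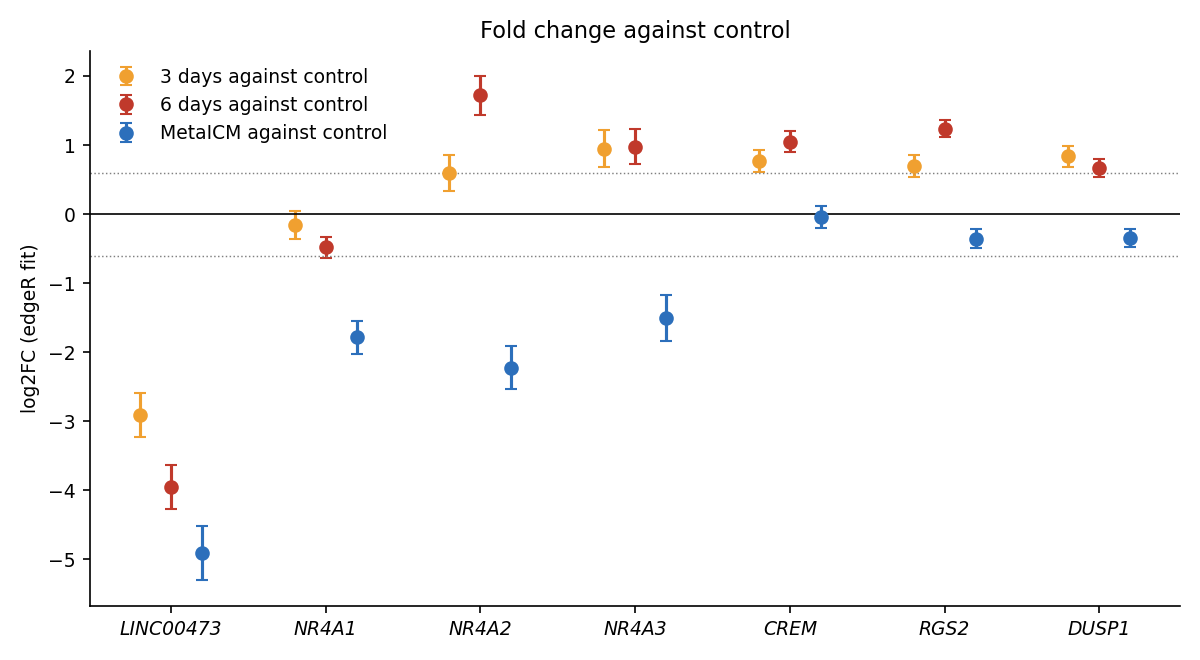
log2FC against control with its standard error (y axis) for 7 members after 3 days (orange), 6 days (red) and in MetaICM (blue); dotted lines mark 0.6 in each direction. NR4A2, NR4A3, CREM, RGS2 and DUSP1 sit above 0 at 3 and 6 days, LINC00473 lies at −2.91 or lower in all 3, and CREM in MetaICM is at −0.04.

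Per kilobase of exon, DUSP1 was the highest member in every condition, with 58.8 ± 7.40 CPM per kilobase (SD, n = 2) in control, 105 ± 15.8 at 3 days, 93.5 ± 9.10 at 6 days and 46.6 ± 6.28 in MetaICM. RGS2 came next throughout, with 15.0 ± 0.580 in control and 35.6 ± 0.520 at 6 days. NR4A1 (9.71 ± 1.88) and NR4A2 (3.16 ± 1.51) followed in control, and at 6 days they had changed places, NR4A2 being at 10.6 ± 3.19 and NR4A1 at 7.0 ± 0.272. LINC00473 was the fifth of 7 in control, at 2.91 ± 0.411, above CREM (1.97 ± 0.10) and NR4A3 (0.521 ± 0.143), and the last of 7 in every other condition. On these lengths, neighbours in the order were apart in both libraries, except NR4A2 and LINC00473 in control, which overlapped. For LINC00473 all 2431 exon bases were used, although pairs on 489 of them were not counted, so its values are too low. Its place against NR4A2 in control and its distance from NR4A3 in MetaICM are thus not settled.

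Upstream of the members, 2 receptors coupled to Gs, of 10 tested, were called lower at 3 days, beside 13.2% of all genes. PTGER2, a receptor for prostaglandin E2, gave 29.4 and 27.3 CPM in control, 19.4 and 12.3 CPM at 3 days, 11.7 and 7.81 CPM at 6 days, and 34.1 and 38.1 CPM in MetaICM. It was lowest at 6 days (log2FC −1.55, standard error 0.19, adjusted p = 0.000114) and did not overlap between any of the 4 conditions. LHCGR, the receptor for luteinizing hormone, fell at 3 days (log2FC −2.72, standard error 0.35, adjusted p = 0.000118) and at 6 days (log2FC −2.15, standard error 0.30, adjusted p = 0.0003), and averaged 10.3 CPM in control and 9.22 CPM in MetaICM. RXFP1, the relaxin receptor, had 0 pairs in both control libraries, 7 and 11 at 3 days, 23 and 26 at 6 days, and 2 and 2 in MetaICM. It was called higher at 6 days than at 3 days (log2FC 1.37, standard error 0.45, adjusted p = 0.0401).

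Of the 5 G protein subunits listed, GNAL was called higher at 3 days and both GNAL and GNAI1 at 6 days, beside 8.85% and 13.3% of all genes. GNAI1, an inhibitory G protein subunit, rose from 90.3 to 226 CPM at 6 days (log2FC 1.32, standard error 0.11, adjusted p = 6.07e-06), and GNAL, which couples to cyclase as GNAS does, from 3.92 to 7.58 CPM (log2FC 0.95, standard error 0.21, adjusted p = 0.00428). Of the 7 cyclases tested, ADCY7 was called higher at 3 days (0.78, standard error 0.18, adjusted p = 0.00704) and ADCY3 lower (−0.62, standard error 0.16, adjusted p = 0.0146). Over all genes the shares were 8.85% higher and 13.2% lower. Of the phosphodiesterases, which break down cAMP, 6 of 13 tested were called lower at 3 days and 5 of 14 at 6 days, beside 13.2% and 17.2% of all genes. PDE3B fell from 7.83 CPM in control to 2.72 CPM at 3 days (log2FC −1.53, standard error 0.24, adjusted p = 0.000549) and was at 2.57 CPM at 6 days. None was called higher by edgeR or DESeq2 at either time, with 0 and 1 (PDE4B) at an unadjusted p under 0.05.

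Of 8 PKA subunit and inhibitor genes tested, 2 were called higher at 3 days and 3 at 6 days, beside 8.85% and 13.3% of all genes. PRKACB, a catalytic subunit of PKA, and PKIG, a PKA inhibitor, were called at both time points. PRKAR1A was called at 6 days only (log2FC 0.63, standard error 0.12, adjusted p = 0.00161). None was called lower by edgeR or DESeq2, beside 13.2% and 17.2% of all genes, with 1 (PRKACA) and 0 at an unadjusted p under 0.05. PRKACB rose from 63.7 to 128 CPM at 3 days (log2FC 1.00, standard error 0.13, adjusted p = 0.000115) and PKIG from 16.6 to 38.2 CPM at 6 days (log2FC 1.19, standard error 0.14, adjusted p = 0.000101). Of CREB1, ATF1, the CRTC coactivators, CREBBP, EP300, SIK2 and SIK3, 0 of 9 were called at 3 or 6 days by edgeR or DESeq2. Over all genes edgeR called 8.85% higher and 13.2% lower at 3 days, and 13.3% and 17.2% at 6 days. At an unadjusted p under 0.05, SIK3 was higher at 3 days, and at 6 days SIK2 and SIK3 were higher and CRTC3, CREBBP and EP300 lower. These last 3 were called lower in MetaICM against control, with log2FC of −0.62, −0.63 and −0.74, beside 8.99% of all genes.

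Over all 8 pathway lists, 8 of 68 genes tested were called higher and 11 lower at 3 days, and 10 and 13 of 70 at 6 days. Of all genes, 8.85% were called higher and 13.2% lower at 3 days, and 13.3% and 17.2% at 6 days, so the summed shares of the 8 lists were near the background. Between 3 and 6 days the counts were 4 and 7 of 70, beside 3.53% and 4.54% of all genes. These lists hold 89 genes, of which the rest had too few counts. At 3 days the counts depended on single libraries, with 5 higher without control replicate 2, and 4 higher and 6 lower without 3-day replicate 1. Without 3-day replicate 2, 7 were lower. From 3 to 6 days, 4 in place of 7 were lower without 3-day replicate 1 or 6-day replicate 2.

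The other CREB-responsive genes, 18 in all, included both genes that rose with the members and genes that fell. At 3 days 4 of 14 tested were called higher (FOSB, PER1, PTGS2 and STC1) and 2 lower (EGR1 and PPARGC1A), beside 8.85% and 13.2% of all genes. At 6 days FOSB, AREG, PTGS2 and STC1 were higher and JUNB, EGR1, PPARGC1A and DIO2 lower, out of 13, beside 13.3% and 17.2% of all genes. Where such a count is spelled out in full, the names beyond the 3 largest changes per list were added after their values were seen. STC1, the secreted hormone stanniocalcin 1, gave 62.7 and 19.9 CPM in control, 130 and 116 CPM at 3 days, and 173 and 151 CPM at 6 days (log2FC 1.95, standard error 0.36, adjusted p = 0.00175). The AP-1 subunit gene FOSB rose from 1.49 to 3.32 CPM at 3 days (log2FC 1.14, standard error 0.33, adjusted p = 0.0213). PPARGC1A, the coactivator PGC-1α, fell from 1.69 to 0.408 CPM at 3 days (log2FC −2.11, standard error 0.47, adjusted p = 0.00598). AREG, the EGFR ligand amphiregulin, rose from 3 to 6 days (log2FC 2.17, standard error 0.39, adjusted p = 0.000624), while the clock gene PER1 fell (log2FC −1.23, standard error 0.13, adjusted p = 2.65e-06).

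In MetaICM, 7 of 14 CREB-responsive genes that are not members were called lower than in control, beside 8.99% of all genes, namely FOS, FOSB, EGR1, PPARGC1A, AREG, PTGS2 and DIO2. The list was chosen with earlier results of these data known, so this count is a description and not independent evidence about CREB-responsive genes. None was called higher, by edgeR or DESeq2 or at an unadjusted p under 0.05, beside 7.41% of all genes. PTGS2, the inducible cyclooxygenase that makes prostaglandins, gave 89.9 and 30.1 CPM in control, 129 and 111 CPM at 3 days, 135 and 112 CPM at 6 days, and 3.91 and 7.51 CPM in MetaICM. Its log2FC in MetaICM was −3.39 against control (standard error 0.45, adjusted p = 0.00086) and −4.41 against 6 days (standard error 0.15, adjusted p = 1.01e-15). FOS gave 16.1 and 17.6 CPM in control and 2.03 and 6.43 CPM in MetaICM (log2FC −1.97, standard error 0.36, adjusted p = 0.00394). AREG had 1 and 3 read pairs in the MetaICM libraries against 109 and 47 at 6 days.

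Against 6 days, 5 of the 14 were lower in MetaICM and 1, JUNB, was higher, beside 12.0% and 15.7% of all genes. Against 3 days 7 were lower, beside 10.3%. Over all 8 pathway lists, 16 of 70 genes were called lower and 3 higher in MetaICM against control, beside 8.99% and 7.41% of all genes. These counts depended on single libraries. Of 14 phosphodiesterases tested there, 5 were called lower and 1 higher. PDE4D, which hydrolyses cAMP, gave 34.1 and 36.8 CPM in control and 13.3 and 15.7 CPM in MetaICM, while PDE3A had 13 and 9 read pairs against 53 and 34 in control (log2FC −2.54, standard error 0.37, adjusted p = 0.00141). PDE11A was the 1 called higher, with 39 and 38 read pairs against 8 and 7 in control (log2FC 1.76, standard error 0.40, adjusted p = 0.0107). PTGER2 and LHCGR, lowest under ICM, were higher in MetaICM than at 6 days (log2FC 1.89 and 2.00, adjusted p = 8.83e-11 and 1.79e-08). Against 6 days 8 of 71 pathway genes were higher and 14 lower, beside 15.7% and 12.0% of all genes, and against 3 days 7 and 15 of 70, beside 13.1% and 10.3%.

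**Figure D5:**
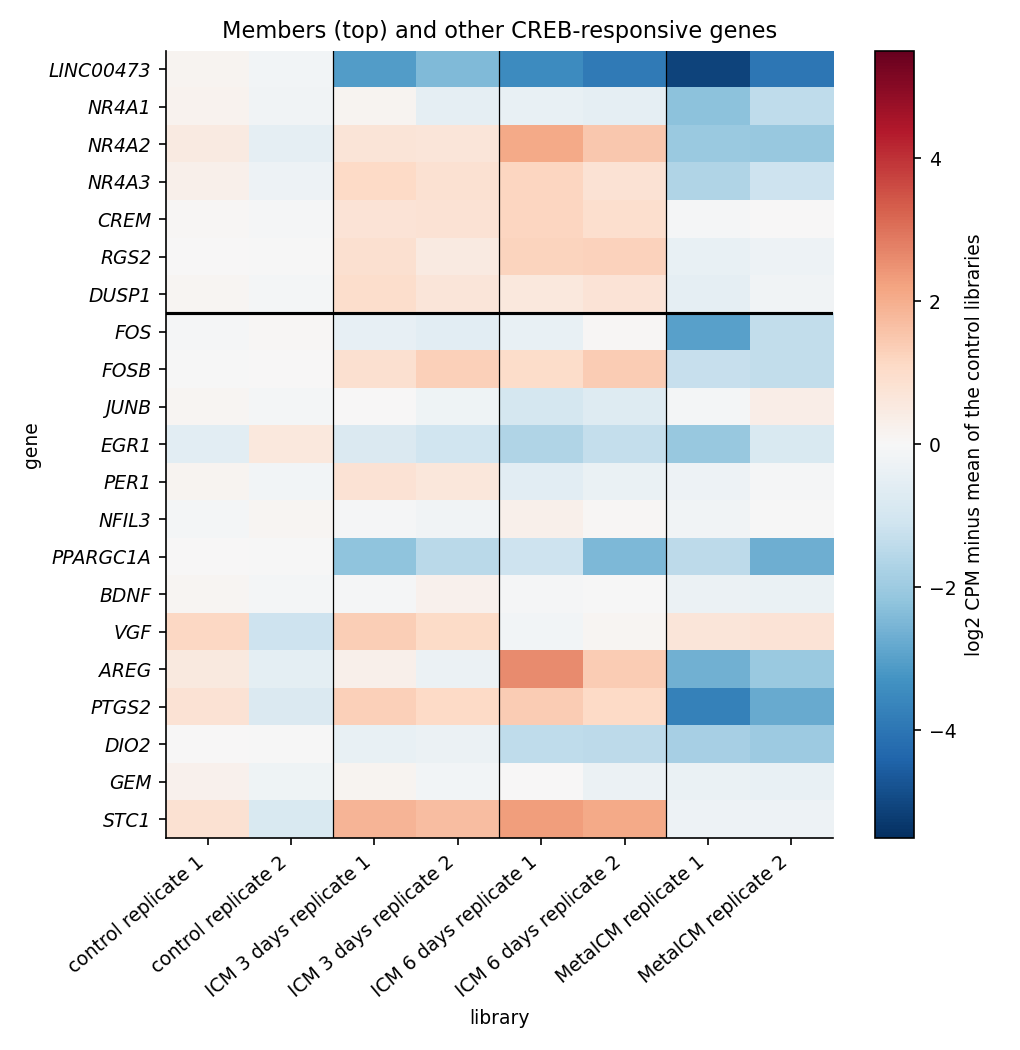
Level of 7 members (above the black line) and 14 other CREB-responsive genes in each library (color, log2 CPM minus the mean of the control libraries; red higher, blue lower). In MetaICM the genes FOS, AREG and PTGS2 are blue together with LINC00473 and the NR4A genes, while STC1 and NR4A2 are red at 6 days and LINC00473 is blue.

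The relatives of RGS2 and DUSP1 were called in both directions. Of 15 RGS genes tested, 2 were called higher at 6 days and 5 lower, beside 13.3% and 17.2% of all genes. RGS18 rose (log2FC 2.56 at 6 days, standard error 0.23, adjusted p = 1.33e-05), and RGS9 fell (log2FC −1.79, standard error 0.32, adjusted p = 0.00147). At 3 days RGS4 had 93 and 59 pairs against 320 and 144 in control (log2FC −1.91, standard error 0.25, adjusted p = 0.000117). Of 8 MAP kinase phosphatases, DUSP4, DUSP5 and DUSP6 were higher at 6 days and DUSP2 and DUSP8 lower, with DUSP4 at a log2FC of 1.39 (standard error 0.29, adjusted p = 0.00318). In MetaICM, where DUSP1 lay below control, DUSP4, DUSP6, DUSP7 and DUSP10 were called higher than control, beside 7.41% of all genes, with DUSP10 at 1.04 (standard error 0.12, adjusted p = 0.000531) and DUSP6, a phosphatase of ERK, at 0.98 (standard error 0.15, adjusted p = 0.00163).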

How the data were processed

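The data are 8 libraries of IMR90, 2 per condition. The authors aligned reads to hg19 (GRCh37) with STAR (version 2.6.0c) and deposited raw counts of read pairs on the exons of each RefSeq gene from featureCounts (version 1.6.3), not normalized. Per the file headers, pairs were counted without regard to strand, and those matching more than a single place or gene were left out. The paper's own nascent values rest on introns and were not analysed here. Groups were taken from the titles in GEO's labels.

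Conditions were compared 2 at a time with edgeR (version 4.0.16, R 4.3.3) on all genes kept by filterByExpr (count minimum 10), with TMM factors, the quasi-likelihood test and Benjamini-Hochberg adjustment over all genes tested. Genes were called at an adjusted p under 0.05 and an absolute log2FC over 0.6, the cutoffs in the study's results. Its methods give an FDR under 0.01 in place of 0.05, which was run as an alternative. CPM are TMM-scaled, and log2 CPM used a prior count of 2. With 2 libraries a group, an exact permutation test of a single gene could not reach 0.05. Members and lists were chosen with earlier results of these data known. Beyond the members, the text names per comparison and list at most 3 called genes with the largest log2FC and at least 10 counts in each library of the higher group, the neighbours of LINC00473, and the 5 genes most like it. Alternatives were DESeq2 (version 1.42.0), other scaling factors, other filters, all libraries in a single fit, the replicate number as a block, thinning to 12095123 counts, and each library left out. The study's methods use DESeq2 with RUVs, which was not run. In simulated data for 3 days against control (15435 genes), 99.5% of 200 changed genes were recovered, with 15 false calls. The changes put into those data were all larger than the log2FC of the members called at 3 days, 0.70 (RGS2) to 0.95 (NR4A3). They were put only into well-counted genes. Recovery at the size of change seen in these members was not tested.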

Additional observations from a re-analysis of the deposited data

Results flagged for a closer look

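Levels differed between the 6-day and 3-day libraries, by the edgeR test of these time points, for NR4A2 (log2FC 1.12) and RGS2 (0.53) among the members. The labels give no day for the control libraries, so length of treatment and days in culture cannot be told apart here. RGS2 has an adjusted p under 0.05 and a change short of the 0.6 required for a call. In the pathway lists, RXFP1 (1.37), GNAI1 (0.80), PDE7B (0.94) and AREG (2.17) were higher after 6 than after 3 days. PTGER2 (−0.73), PDE4A (−0.67), PRKAR2B (−0.71), VGF (−1.43), PER1 (−1.23), DIO2 (−1.05) and JUNB (−0.75) were lower. With 2 libraries per condition, outlying libraries could not be tested for.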

How the results depend on the processing

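Limits are set by 2 libraries per condition and, for LINC00473, by at most 18 read pairs in any treated library. For MetaICM against 6 days, its counting interval includes equal levels.

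With an adjusted p of 0.01, NR4A3 lost its calls at 3 days (adjusted p = 0.0201) and 6 days (adjusted p = 0.0118), leaving 3 and 4 members higher (4 and 5 before). Testing all genes with a count, NR4A2 at 3 days was called higher (0.60, adjusted p = 0.0148). With an adjusted p of 0.01, pathway genes at 3 days were 5 higher and 6 lower (8 and 11 before), those from 3 to 6 days 3 lower (7), those in MetaICM against control 10 lower (16), RGS and DUSP relatives there 3 higher (6), those in MetaICM against 3 days 1 lower (2), and neighbours of LINC00473 were called 0, 0 and 1 times from 3 to 6 days and in MetaICM against control and 6 days (1, 1 and 2). With DESeq2 the pathway counts were 4 higher at 3 days and 4 lower from 3 to 6 days, the relatives 0 lower in MetaICM against 3 days, and the neighbours 0, 0 and 1. A minimum of 10 counts in every library gave 2 relatives lower at 3 days (4), 2 in MetaICM against control (1) and 1 against 3 days (2). Upper-quartile factors, all genes with a count and a single fit of 8 libraries also gave 2 against control, and all genes with a count 1 against 3 days. Library totals gave 0 neighbours in MetaICM against control, and thinning gave 1 at 3 days (0), 1 in MetaICM against 6 days and 1 against 3 days (0). NR4A3 between time points became −0.0033 with library totals (0.02 before). The cause was not tested.

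The replicate number was also used as a block. The rep 1 to rep 2 differences of 2 conditions correlated between −0.111 and 0.172 over 16591 genes. Such weak correlations show no clear pairing by number but cannot exclude it. The replicate block gave 1 relative higher at 3 days (0) and 1 lower in MetaICM against 3 days (2), and NR4A2 at 3 days was called (0.64, adjusted p = 0.00077), for 5 members higher in place of 4.

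With each library left out in turn (the lone library is assumed to vary like the others), members called ranged from 2 to 5 higher at 3 days, 0 to 1 lower at 6 days, and 1 to 2 higher and 0 to 1 lower from 3 to 6 days. Pathway genes ranged from 4 to 10 higher and 6 to 12 lower at 3 days, 4 to 8 lower from 3 to 6 days, and 1 to 7 higher and 8 to 17 lower in MetaICM against control. Relatives ranged from 0 to 2 higher and 1 to 4 lower at 3 days and 0 to 2 lower in MetaICM against 3 days. Neighbours ranged from 0 to 2 at 3 days, 0 to 1 from 3 to 6 days, 0 to 2 in MetaICM against control, 1 to 2 against 6 days and 0 to 1 against 3 days. Directions turned only for small values, NR4A1 at 3 days (−0.52 to 0.14) and between time points (−0.61 to 0.028), NR4A3 between time points (−0.16 to 0.20) and CREM in MetaICM against control (−0.085 to 0.032).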
